A study of Mus musculus with 3 samples.

Results

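A group of 10 genes that mark or maintain blood stem and progenitor cells was followed in 3 mouse leukemias without miR-196b. The group was chosen by symbol: Cd34, Gata2, Erg, Mecom, Hlf, Lmo2, Mycn, Procr, Ly6a and Slamf1. All 10 were found among the 28074 gene symbols of the deposited expression table, and all 10 reached a mean of at least 1 TPM (a relative abundance corrected for transcript length and library size), as did 15181 symbols in all. The RNA came from leukemic spleen cells of 3 moribund mice that make up 1 group, and c-Kit-bearing cells had been enriched with magnetic beads. All 3 mice lacked miR-196b, carried the Flt3 internal tandem duplication on both copies of Flt3 and floxed Dnmt3a alleles, and had Mx1-Cre. Mx1-Cre is a recombinase under an interferon-responsive promoter, which acts in blood cells but also in other tissues. The genotype field gives Dnmt3a as floxed on both copies, while the titles give 1 lost copy. The numbers 1, 2 and 3 only name the mice, and their ages are not given. Control leukemias that keep miR-196b come from a different series and were not analysed here, so every value below is a level or a difference between mice of the same genotype, with no test between genotypes and no p-value.

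A blood stem cell is held in its state by a small circuit of transcription factors that bind together at shared enhancers and keep each other expressed. Erg, Gata2 and Lmo2 belong to that circuit, and Mecom, Hlf and Mycn act beside it. The surface proteins made by Cd34, Slamf1, Procr and Ly6a are used to sort stem and progenitor cells by antibody. In mouse bone marrow the most dormant stem cells carry Slamf1, Procr and Ly6a protein and little or no Cd34, whereas dividing progenitors carry Cd34. Acute myeloid leukemias often keep part of this program. miR-196b lies in the Hoxa cluster, and like other microRNAs it lowers transcripts that pair with its seed, bases 2 to 8 of the mature strand.

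The mature strand of the deleted microRNA and the places in the 3′ untranslated regions of the 10 genes that could pair with its seed are shown first, because miR-196b is the microRNA that all 3 mice lack. Capitals mark the seed in the microRNA and the matching bases in each site. The site was searched as ACTACCT, which pairs with bases 2 to 8, and as CTACCTA, which pairs with bases 2 to 7 and has A opposite base 1. Only the sense strand was searched, since the microRNA pairs with the transcript.
mmu-miR-196b-5p: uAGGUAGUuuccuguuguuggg
mmu-miR-196a-5p: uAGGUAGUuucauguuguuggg
Erg site: gtcatttgaagggaaACTACCT
Hlf first site: catatttacttactgCTACCTA
Hlf second site: aggaaaaaaaattccCTACCTA

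The miR-196b strand lies at chr6:52230129-52230150 on the minus strand (RefSeq, GRCm38.p6). Its relative miR-196a-5p, encoded elsewhere in the genome, has the same seed. Erg held 1 match to bases 2 to 8, at chr16:95360372-95360393 on the minus strand (GRCm38), starting 428 nt after the stop codon of a 3′ untranslated region of 1637 nt. Among 1801 expressed genes whose 3′ untranslated region was within 20% of that length, 6.50% held such a match. Hlf held no match to bases 2 to 8 and 2 of the shorter kind, at chr11:90340076-90340097 and chr11:90339909-90339930 on the minus strand, in a 3′ untranslated region of 4223 nt. Of 938 expressed genes with one of similar length, 30.2% held a match of either kind. The other 8 genes held neither. Over all 11916 expressed genes with an annotated 3′ untranslated region, 6.70% held a match to bases 2 to 8. A match is a description of letters, and with no control group these values say nothing of whether the microRNA acted on it.

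Transcriptional regulators filled most of the upper ranks, and Cd34 was the only surface gene among them. Lmo2 was the most abundant. It encodes a bridging protein that joins DNA-binding factors of the stem cell circuit. Its level was 198, 188 and 220 TPM in mice 1, 2 and 3, a mean of 202 ± 16.4 TPM (SD, n = 3), above the means of 96.0% of the expressed genes. Cd34, a sialomucin of progenitor and endothelial surfaces, followed with levels of 202, 141 and 137 TPM, a mean of 160 ± 36.7 TPM (SD, n = 3), above 94.7% of expressed genes. The ranges of Lmo2 and Cd34 overlapped, and Lmo2 was the higher gene in 2 of 3 mice.

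Erg, an ETS-family factor needed to maintain stem cells, stood at 67.3, 43.0 and 46.5 TPM, a mean of 52.2 ± 13.1 TPM (SD, n = 3). Mouse 1 was the highest and mice 2 and 3 lay close together. The Cd34 range did not overlap that of Erg, and Cd34 was the higher gene in 3 of 3 mice. Mycn, a Myc-family factor that drives growth of immature cells, stood at 75.6, 33.3 and 27.7 TPM, a mean of 45.5 ± 26.2 TPM (SD, n = 3). Erg and Mycn overlapped, with Erg higher in 2 of 3 mice. Mycn was above Hlf, the next gene in order, in 3 of 3 mice, although their ranges overlapped.

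Hlf, a PAR-domain bZIP factor typical of the most immature blood cells, stood at 40.7, 20.1 and 22.9 TPM, a mean of 27.9 ± 11.2 TPM (SD, n = 3). Gata2, a zinc-finger factor of stem cells and of the mast cell and megakaryocyte lineages, stood at 44.3, 16.8 and 16.9 TPM, a mean of 26.0 ± 15.9 TPM (SD, n = 3). Mecom, the gene of the Evi1 and Mds1-Evi1 proteins, stood at 21.5, 14.4 and 10.2 TPM, a mean of 15.4 ± 5.70 TPM (SD, n = 3). In all of these genes mouse 1 was the highest. Hlf and Gata2 were close, with Hlf higher in 2 of 3 mice. Gata2 exceeded Mecom in 3 of 3 mice although their ranges overlapped. Mecom overlapped with the next gene, Ly6a, and was the higher in 2 of 3 mice. The gene-level value of Mecom does not separate its long and short proteins, which start from different promoters.

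The surface genes used to sort dormant stem cells had the lowest means of the 10. Ly6a, which encodes the Sca-1 antigen, stood at 8.85, 8.96 and 17.3 TPM, a mean of 11.7 ± 4.86 TPM (SD, n = 3). Mouse 3 was 1.96-fold above mouse 1 and 1.93-fold above mouse 2. In mouse 3 alone Ly6a was above Gata2 (16.9 TPM) and Mecom (10.2 TPM). Procr, the endothelial protein C receptor, stood at 1.07, 2.41 and 2.64 TPM, a mean of 2.04 ± 0.844 TPM (SD, n = 3), and mouse 1 was the lowest. Slamf1, which encodes the sorting antigen CD150, stood at 0.945, 0.857 and 1.27 TPM, a mean of 1.02 ± 0.217 TPM (SD, n = 3), above only 0.356% of the genes that reached a mean of 1 TPM. The range of Procr lay wholly below that of Ly6a, and Procr was above Slamf1 in 3 of 3 mice with overlapping ranges. The depth of the libraries is not given by TPM, so the counting error of values this low is unknown.

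**Figure D1:**
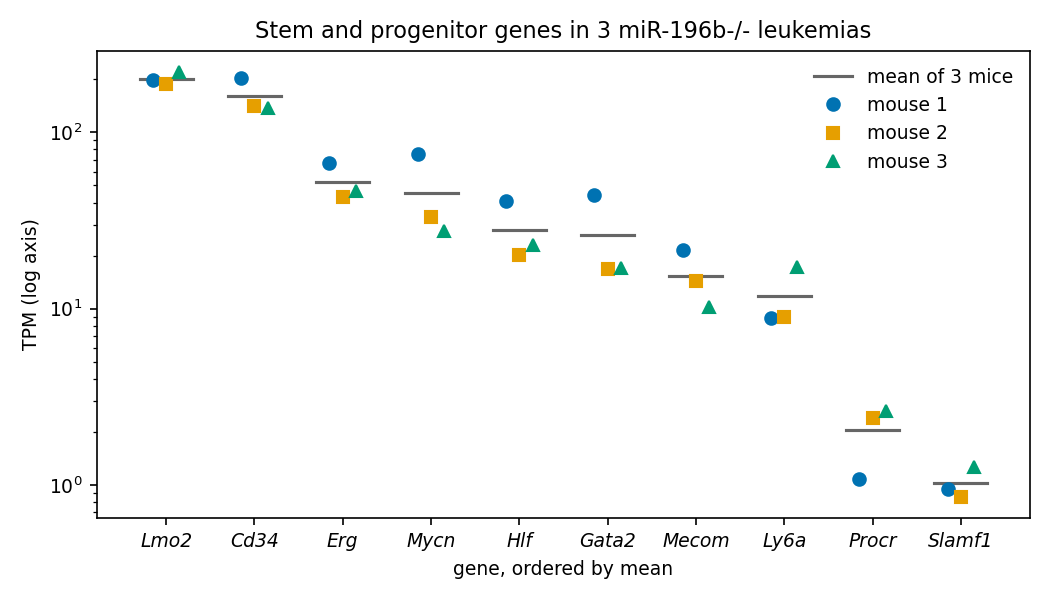
Level of each gene in TPM on a log axis, with 1 point per mouse (circle, mouse 1; square, mouse 2; triangle, mouse 3) and a line at the mean of the 3 mice. Lmo2 and Cd34 lie at 137 TPM or higher in every mouse, Procr and Slamf1 at 2.64 TPM or lower, and mouse 1 is the highest for 6 genes.

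Of the 10 genes, 6 shared a pattern: Cd34, Gata2, Erg, Mecom, Hlf and Mycn were highest in mouse 1, and all 6 kept that order after each mouse was scaled to a common upper quartile. Over all expressed genes mouse 1 was the highest for 48.6%, mouse 2 for 31.1% and mouse 3 for 20.3%, and after that scaling for 35.6%, 33.9% and 30.4%. A count of 6 of 10 is near the background of the deposited values, so the direction alone is no result about these genes. None of the 10 genes was highest in mouse 2. The other 4, Lmo2, Ly6a, Procr and Slamf1, were highest in mouse 3 under both scalings.

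Between mice 1 and 2, 3 of 10 genes were at least 2-fold higher in mouse 1 (Gata2 by 2.64-fold, Mycn by 2.27-fold and Hlf by 2.02-fold), against 3.79% of all expressed genes. Between mice 1 and 3, 3 of 10 were at least 2-fold higher in mouse 1 (Mycn by 2.73-fold, Gata2 by 2.62-fold and Mecom by 2.10-fold), against 4.61%. In the opposite direction Procr was the only member past 2-fold. It was 2.24-fold higher in mouse 2 than in mouse 1, where 4.22% of expressed genes passed, and 2.46-fold higher in mouse 3 than in mouse 1, where 4.08% passed. Between mice 2 and 3 no member differed by 2-fold in either direction, against 2.69% higher in mouse 2 and 2.85% higher in mouse 3. These are folds between single mice, and they have no replicate check.

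Gata2 and Mycn were at least 2-fold higher in mouse 1 than in both other mice, which held for 1.98% of expressed genes, and Procr was at least 2-fold lower there than in both, which held for 2.28%. In all, 5 of 10 members had a highest mouse at least 2-fold above the lowest, against 13.8% of expressed genes. After upper-quartile scaling Hlf and Mecom fell just under 2-fold, at 1.90 for both, and Ly6a passed it, at 2.16 between mice 3 and 1. With that scaling 4 members passed, against 13.8% of expressed genes. Without mouse 1 the count was 0 of 10, where 2.69% of expressed genes were at least 2-fold higher in mouse 2 and 2.85% in mouse 3.

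**Figure D2:**
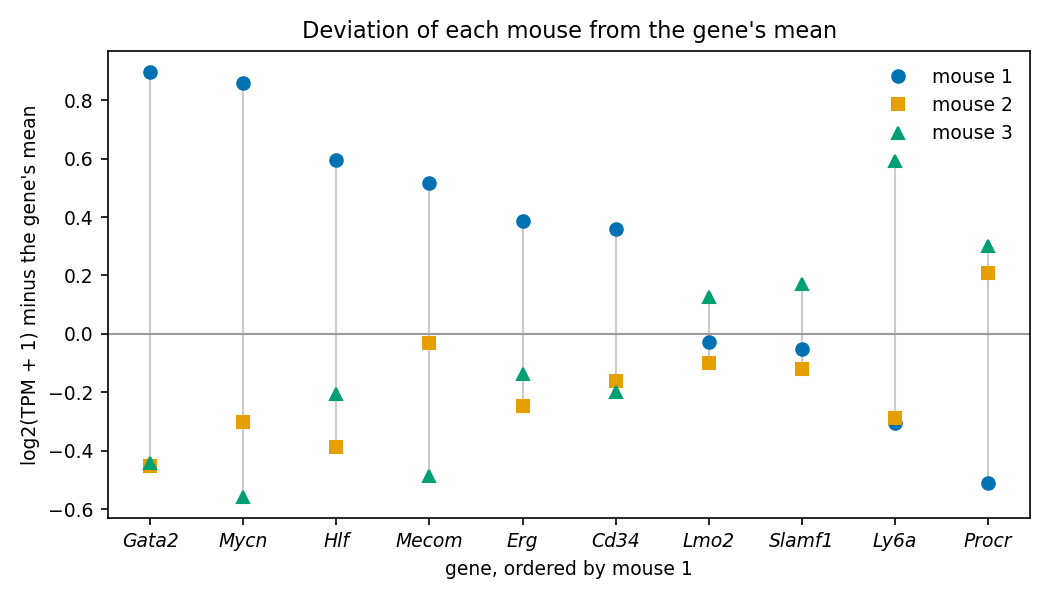
Deviation of each mouse from the gene's mean, in log2(TPM + 1) units, with genes ordered by the value of mouse 1 and a grey line joining the extremes. Mouse 1 lies above the mean for the first 6 genes and below it for the other 4, while mice 2 and 3 lie near each other for most genes.

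The spread between mice, as the SD of log2(TPM + 1), had a median of 0.473 over the 10 genes, against 0.208 over all expressed genes. Gata2 (0.777) and Mycn (0.755) had the widest spread, wider than 96.9% and 96.6% of expressed genes. Hlf (0.523), Ly6a (0.512) and Mecom (0.502) came next, each wider than 90.7% or more of expressed genes. Procr (0.443), Erg (0.339) and Cd34 (0.312) lay between. Slamf1 (0.152) and Lmo2 (0.115) varied less than the median gene, and the SD of Lmo2 was wider than that of only 20.9% of expressed genes. Adding 1 compresses differences near 1 TPM. With 0.1 added the SD of Slamf1 was 0.270 and that of Procr 0.672, behind only Gata2 and Mycn. Without mouse 1 the median spread of the 10 genes was 0.143, but that of all expressed genes over mice 2 and 3 was not computed. The SD of Gata2 over mice 2 and 3 was 0.00739. The spread of Ly6a rested on mouse 3 instead: its SD was 0.0115 without mouse 3 and 0.622 without mouse 1.

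**Figure D3:**
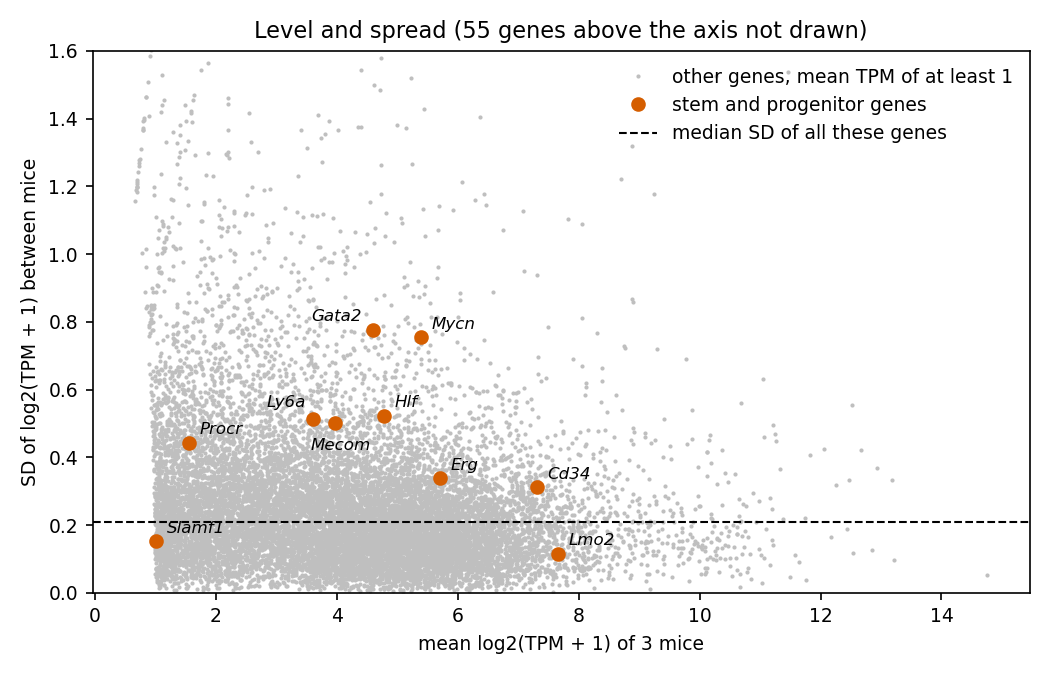
Mean level against spread between mice, both in log2(TPM + 1) units, for all genes with a mean of at least 1 TPM (grey) and the 10 stem and progenitor genes (orange); the dashed line is the median spread of all these genes, 0.208. Lmo2 and Slamf1 lie below the line and the other 8 genes above it.

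Ratios between members show which of them kept step. Over the 45 pairs of members the SD of the log2 ratio had a median of 0.556. The steadiest pair was Cd34 and Erg, with 3.01, 3.27 and 2.95 times as much Cd34 as Erg in mice 1, 2 and 3 (SD of the log2 ratio 0.0795). Mycn and Gata2 followed, with 1.71, 1.98 and 1.64 times as much Mycn (SD 0.145). The least steady pair was Gata2 and Procr, with 41.3, 6.97 and 6.41 times as much Gata2 (SD 1.52). These pairs were picked as the extremes of 45, over 3 mice, and are a description.

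Each member was set beside its closest relatives, whose TPM can be compared because the values are per length. Cd34 was the main sialomucin of its family. It took 78.6%, 88.1% and 89.9% of the summed TPM of Cd34, Podxl and Podxl2 in mice 1, 2 and 3. Podxl, its closest relative, stood at 54.4, 16.8 and 13.8 TPM, so mouse 1 was the highest for this gene too. Podxl2 stood at 1.44 ± 0.857 TPM (SD, n = 3).

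Slamf1 made up only 0.207% ± 0.0784 (SD, n = 3) of the summed TPM of its SLAM-family relatives and itself. Cd48, which normal stem cells of the dormant kind lack and progenitors carry, stood at 347, 267 and 218 TPM, a mean of 277 ± 65.2 TPM (SD, n = 3) and 271 times the mean of Slamf1. Slamf7 had a mean of 124 TPM, Cd244 39.1 TPM, Cd84 36.7 TPM and Ly9 33.3 TPM, while Slamf6, at 1.16 TPM, was as low as Slamf1. Low Slamf1 beside high Cd48 was seen in 3 of 3 mice.

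Ly6a likewise was a minor member of the Ly6 family, at 1.24% ± 0.196 (SD, n = 3) of its summed TPM. Ly6e, a widely expressed relative, stood at 520 ± 30.8 TPM, and Ly6c2, a surface gene of myeloid cells, at 360 ± 175 TPM (SD, n = 3). Ly6c2 had 291, 229 and 559 TPM and Ly6f 5.49, 6.78 and 19.5 TPM. All 6 relatives that reached a mean of 1 TPM, both of these included, were highest in mouse 3 under both scalings, as Ly6a was. Mouse 3 was the highest for 20.3% of expressed genes as deposited and 30.4% after scaling. Ly6g, a neutrophil gene, stood at 0.429, 6.77 and 28.5 TPM. Ly6i stood at 2.31 TPM, Ly6d at 1.02 TPM and Ly6k at 0.820 TPM, and Ly6c1 was listed at 0 in all mice. Ly6 genes are close copies of each other, and how the quantification divided reads among them was not tested.

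Among the GATA factors Gata2 took 72.1%, 56.8% and 38.0% of the summed TPM in mice 1, 2 and 3. Gata1, the erythroid and megakaryocytic factor that replaces Gata2 during differentiation, stood at 9.60, 7.62 and 19.5 TPM. Gata2 thus exceeded Gata1 by 4.62-fold and 2.20-fold in mice 1 and 2, while in mouse 3 the ratio of Gata2 to Gata1 was 0.866. Gata3, a factor of lymphoid cells and some stem cells, stood at 6.93 ± 1.57 TPM (SD, n = 3). The 7 erythroid markers found summed to 79.8, 57.5 and 145 TPM, lowest in mouse 2 and highest in mouse 3, as Gata1 was. Whether erythroid cells contributed to Gata1 was not tested.

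Erg was expressed below its near relative Fli1, which stood at 97.2 ± 3.72 TPM (SD, n = 3) and hardly differed between mice, at 99.9, 98.7 and 92.9 TPM. The level of Erg was 0.673, 0.436 and 0.500 of that of Fli1. The more distant ETS genes stood at 89.2 TPM (Elf1), 18.0 TPM (Ets2) and 9.32 TPM (Ets1), and Fev was listed at 0 in all mice. Mecom exceeded its relative Prdm16, at 5.46, 5.98 and 2.58 TPM, in 3 of 3 mice, by 3.94-fold, 2.40-fold and 3.96-fold.

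Hlf and its relative Tef were close, with 30.2, 15.1 and 24.3 TPM of Tef and a ratio of Hlf to Tef of 1.35, 1.34 and 0.942. Dbp (5.27 TPM) and the repressor Nfil3 (14.3 TPM), which binds the same kind of DNA site, were lower than Hlf in every mouse. Lmo2 took 70.1% ± 1.79 (SD, n = 3) of its family, ahead of Lmo4 at 70.8 ± 6.65 TPM and Lmo1 at 15.2 ± 3.78 TPM, while Lmo3 had a mean of 0.0234 TPM. Mycn made up 18.8%, 10.8% and 10.4% of the summed TPM of the Myc genes. Myc was the largest, at 258, 167 and 160 TPM, with mouse 1 the highest as for Mycn. Mycl1 stood at 68.8, 109 and 78.4 TPM, with mouse 1 the lowest, so Mycn was above Mycl1 in mouse 1 and below it in mice 2 and 3.

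**Figure D4:**
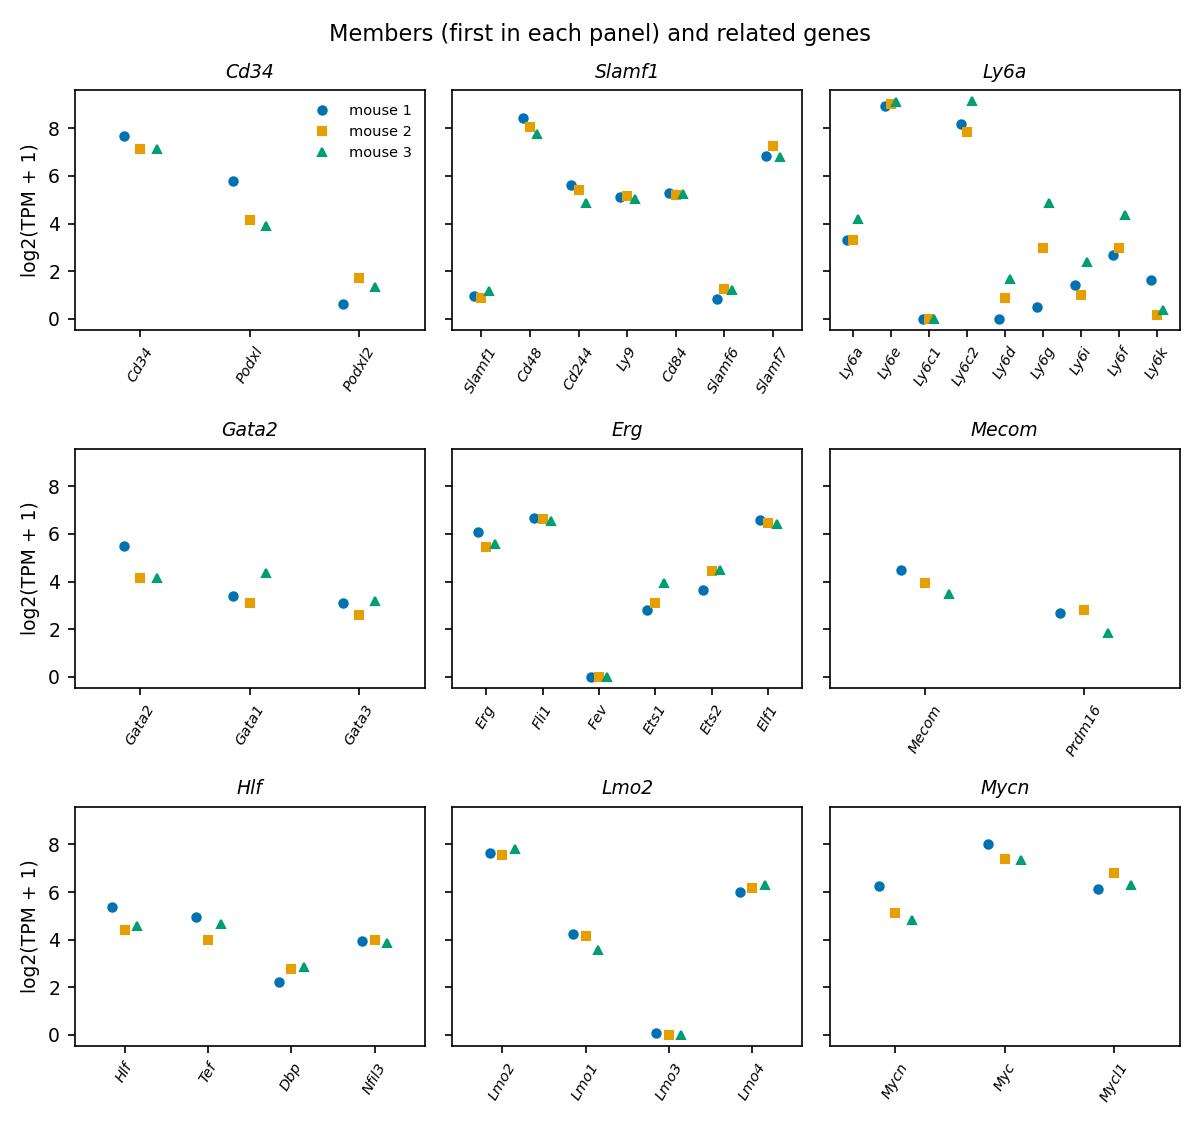
Level in log2(TPM + 1) of each member (first gene of each panel) and its relatives, 1 point per mouse. In 5 of the 9 panels (Cd34, Gata2, Mecom, Hlf and Lmo2) the member has the highest mean; Erg is below Fli1 and Elf1, Mycn below Myc and Mycl1, and Slamf1 and Ly6a are far below their leading relatives.

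Procr has no close relative in the table's lists, so the protein C pathway in which it acts was taken instead. Procr presents protein C to thrombomodulin, and the activated protein can signal through the receptor F2r. Proc, the gene of protein C, which the liver makes, was listed at 0 in all mice, and thrombomodulin (Thbd) stood at 2.90 ± 0.951 TPM (SD, n = 3). F2r stood at 105, 36.3 and 31.7 TPM, highest in mouse 1, where Procr was lowest. F2rl2 stood at 48.0 TPM, Pros1 at 3.45 TPM and F2rl1 at 0.480 TPM.

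The partners of Erg, Gata2 and Lmo2 in the stem cell circuit were all expressed. Besides Fli1, the circuit holds Runx1 (88.3 ± 9.71 TPM), Lyl1 (64.8 ± 7.71 TPM), Tal1 (20.5 ± 6.66 TPM) and the scaffold Ldb1 (103 ± 9.09 TPM; all SD, n = 3). The median SD of these 5 genes was 0.161 log2 units, against 0.473 for the 10 members and 0.208 for all expressed genes. None of the 5 differed by 2-fold between mouse 1 and mouse 2 or 3. Of expressed genes, 3.79% were at least 2-fold higher in mouse 1 than in mouse 2, and 4.61% than in mouse 3. In the opposite direction 4.22% and 4.08% passed. A count of 0 of 5 is near those shares, so it is no result about these genes. Tal1 was lowest in mouse 2, at 12.9 TPM, against 24.2 and 24.5 TPM in mice 1 and 3.

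Other stem and progenitor genes were read from further lists. Over all expressed genes 48.6% were highest in mouse 1 as deposited and 35.6% after scaling. Of 19 expressed regulators besides the members and the circuit, 11 (57.9%) were highest there as deposited and 10 (52.6%) after scaling. Gfi1 was at least 2-fold higher in mouse 1 than in mouse 2 (3.79% of expressed genes), and Prdm16 than in mouse 3 (4.61%), though neither after scaling. Cbfa2t3 (288 TPM) and Ikzf1 (221 TPM) were the most abundant of that list, and Hoxb5, a gene of dormant stem cells, was listed at 0 in all mice. Of 19 expressed surface genes, 13 (68.4%) were highest in mouse 1 as deposited and 12 (63.2%) after scaling. Esam, Ctnnal1, Itga2b, Thy1 and Fcgr3 were at least 2-fold higher in mouse 1 than in mouse 2, 5 of 19 against 3.79% of expressed genes, and Esam, Itga2b, Thy1 and Il7r than in mouse 3, 4 of 19 against 4.61%. After scaling the first 5 held, against 3.12%, and of the last 4 only Itga2b and Thy1, against 3.46%.

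Kit, the gene of the receptor used for enrichment, stood at 139, 149 and 133 TPM in mice 1, 2 and 3, so it did not follow the order of Cd34 or Gata2. Of the surface list Cd48 and Cd9 (201 TPM) were the most abundant, and Robo4 (1.08 TPM) and Tek (0.0779 TPM), which mark stem and endothelial cells, were the lowest. Mouse counterparts of a human leukemia stem cell signature known as LSC17, which includes Cd34, had 11 other expressed genes. Of these, 8 (72.7%) were highest in mouse 1 under both scalings, against 48.6% and 35.6% of expressed genes. Dnmt3b and Emp1 were at least 2-fold higher there than in mouse 3, against 4.61% of expressed genes (after scaling, only Emp1, against 3.46%). None was 2-fold higher in mouse 1 than in mouse 2, while Zbtb46, which is also in the dendritic cell list, was 2.15-fold higher in mouse 2 than in mouse 1 as deposited, where 4.22% of expressed genes passed 2-fold, and 2.29-fold after scaling, where 5.03% did. Cdk6 (170 TPM) was the most abundant of that list with Cd34, and Mmrn1 (0.796 TPM) and Cpxm1 (0.345 TPM) were the lowest.

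Genes of the granulocyte-monocyte progenitor, a later stage of the myeloid line, had a higher median than the 10 members. Their median was 7.47 ± 0.07 log2(TPM + 1), against 4.70 ± 0.64 for the 10 members (mean and SD of the medians of 3 mice). For the circuit partners it was 6.46 ± 0.14, for the other regulators 5.44 ± 0.18 and for the other surface genes 5.02 ± 0.42. Such medians depend on which genes a list holds. Mpo, the myeloperoxidase gene, had 1192 ± 396 TPM and Irf8, a monocyte and dendritic cell factor, 915 ± 296 TPM (SD, n = 3). Csf1r (16.3 TPM) and Csf3r (28.2 TPM) were the lowest of the granulocyte-monocyte progenitor list. Mouse 1 had the highest value for 4 of its 12 genes under both scalings, against 48.6% of expressed genes as deposited and 35.6% after scaling. Mouse 3 had it for 6 under both, against 20.3% and 30.4%. As deposited, 3 of the 12 were at least 2-fold higher in mouse 3 than in mouse 1, against 4.08% of expressed genes. Over all expressed genes the median was 4.28, 4.15 and 4.14 in mice 1, 2 and 3, and that of the 10 members was 5.44, 4.28 and 4.39.

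Some members are also expressed outside stem cells, so marker lists of other cells that the enriched fraction could hold were read beside them. Over all expressed genes 24.4% were lowest in mouse 1 as deposited and 36.0% after scaling. All 10 neutrophil genes were lowest in mouse 1 and highest in mouse 3 under both scalings, with a summed level of 2475, 6470 and 21524 TPM. S100a8, the most abundant, had 1034, 2529 and 8646 TPM. All 15 interferon response genes were lowest in mouse 1 under both scalings, with sums of 190, 406 and 403 TPM. Ly6a is known as an interferon-inducible gene, and its own levels were 8.85, 8.96 and 17.3 TPM. Of 10 dendritic cell genes 9 were lowest in mouse 1 under both scalings, with sums of 585, 1089 and 767 TPM. The part of any of these cells or responses in the levels of the members was not tested. In bulk RNA, fewer cells that express a gene and less RNA of it per cell cannot be told apart.

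Gata2 is also a mast cell gene. Of 10 mast cell and basophil markers, which include Gata2, 7 reached a mean of 1 TPM. The other 3 were at or near 0: Tpsb2 at 0 in all mice, Cma1 with a mean of 0.0230 TPM and Fcer1a with one of 0.0507 TPM. Cpa3, which early progenitors of this lineage also express, had 51.9, 14.6 and 13.2 TPM, with mouse 1 the highest as for Gata2, and Mcpt8 had 31.4, 12.5 and 17.3 TPM. The summed level of that list, with Gata2 in it, was 155, 71.5 and 91.8 TPM. Its median was instead lowest in mouse 1, at 2.42, 2.68 and 3.00 log2(TPM + 1). Of the 7 expressed markers, Gata2 included, 4 were highest in mouse 1 and 3 in mouse 3 under both scalings. Over all expressed genes mouse 1 was highest for 48.6% as deposited and 35.6% after scaling, and mouse 3 for 20.3% and 30.4%. Whether such cells contributed to Gata2 was not tested.

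Cd34, Erg and Procr are also endothelial genes. Of 10 endothelial markers 6 reached a mean of 1 TPM, and their sum was 131, 118 and 110 TPM. Most of it came from Pecam1 (41.1 TPM), Vwf (36.7 TPM) and Egfl7 (32.8 TPM). Tie1 (4.76 TPM), Emcn (2.25 TPM) and Plvap (1.20 TPM) were lower. Cdh5 (0.375 TPM), Kdr (0.412 TPM), Cldn5 (0.0884 TPM) and Tek stayed under 1 TPM. A contribution of endothelial cells to Cd34, Erg or Procr was not tested. Megakaryocyte markers summed to 123, 99.2 and 132 TPM. Itga2b, one of them, had 49.0, 15.5 and 18.2 TPM, highest in mouse 1 as Gata2 was. The list as a whole did not share that order, and its median was 2.84, 2.45 and 2.96 log2(TPM + 1). Of its 10 genes, 4 were highest in mouse 1 as deposited and 3 after scaling, against 48.6% and 35.6% of expressed genes. Mouse 3 was highest for 5 and 6, against 20.3% and 30.4%. T cell markers, relevant to Ly6a and Slamf1, summed to 35.0, 38.5 and 42.7 TPM, and 7 of the 10 reached a mean of 1 TPM. Lck (16.4 TPM) led them, followed by Cd3d (6.06 TPM), Cd8a (4.79 TPM) and Cd4 (4.55 TPM), and Cd3g (0.476 TPM) and Zap70 (0.377 TPM) were the lowest. B cell markers summed to 51.8, 95.4 and 130 TPM, led by Ighm at 32.2, 76.8 and 108 TPM. All 10 T cell and all 10 B cell markers had a row in the table.

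**Figure D5:**
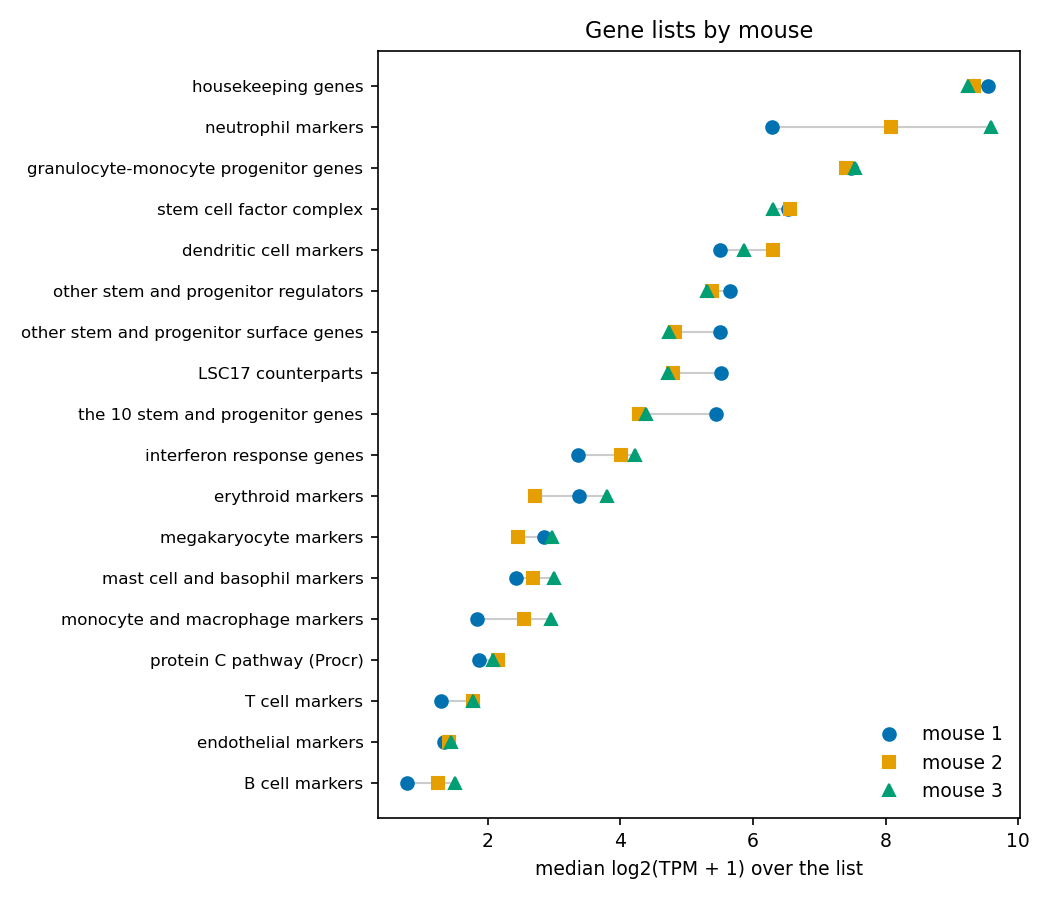
Median log2(TPM + 1) over each gene list in each mouse. The 10 stem and progenitor genes, the other stem and progenitor surface genes and the LSC17 counterparts are highest in mouse 1 (5.44, 5.50 and 5.52). The LSC17 list includes Cd34. The other stem and progenitor regulators are highest there too (5.65), and the stem cell factor complex is highest in mouse 2 (6.56). The neutrophil markers run from 6.29 in mouse 1 to 9.59 in mouse 3. Over all expressed genes, not drawn, the median was 4.28, 4.15 and 4.14 in mice 1, 2 and 3.

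The members' own promoters were read for letters of the factors they encode, because Gata2 and Erg act on each other's genes in stem cells. RefSeq start sites gave 12 windows of 250 bases before to 50 bases after the start for 8 of the 10 genes. The GATA letters AGATAA or TGATAA, on either strand, were present in 3 of the 12 windows, against 11.3% of the 12692 windows of expressed genes. The 3 stretches are shown because they are the only places in these windows where the letters occur, and capitals mark them.
Mecom: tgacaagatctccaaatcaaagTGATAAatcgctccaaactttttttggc
Erg: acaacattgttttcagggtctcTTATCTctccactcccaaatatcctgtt
Slamf1: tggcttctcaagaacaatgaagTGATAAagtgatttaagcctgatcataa

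The Mecom stretch is chr3:30509763-30509812 on the minus strand, the Erg stretch chr16:95459424-95459473 on the minus strand and the Slamf1 stretch chr1:171766980-171767029 on the plus strand (GRCm38.p6). The letters begin 31, 103 and 130 bases before the start in Mecom, Erg and Slamf1. In Erg they stand in reverse, and only 1 of the 3 Erg windows holds them. Of these genes Mecom and Erg were highest in mouse 1, as Gata2 was, and Slamf1 was not. Cd34, Hlf and Mycn, whose windows hold no GATA letters, were highest there too, as were 48.6% of expressed genes. Whether Gata2 acts on these promoters was not tested. The ETS letters CCGGAAG were in none of the 12 windows, against 16.4% of windows of expressed genes. The E-box letters CAGCTG were in 3 windows (Gata2, Procr and Slamf1), against 15.4%, and CAGATG in 2 (Mecom and Mycn), against 12.3%. A match does not show a bound site, and its absence says only that these letters are not in these windows.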

How the data were processed

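RNA sequencing of 3 mice (1 group) was deposited as 1 table. Per the labels' protocols, RNA with an integrity number above 8 gave stranded, paired-end libraries of 150 nt with 30000000 reads planned; ribosomal depletion and an mRNA kit are both named. The file's name says log2 FPKM, but the deposited values are linear and every column sums to 927169 to 929731, so the values the authors deposited were read as TPM. kallisto and mm10 are named in the submitters' processing notes; version and annotation are not given in the sources used here. TPM keeps no depth. The 3 columns of another series in the table were not used.

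Rows without a symbol (795, 0.532% to 0.608% of a column) or with a date in its place (27) were left out, and rows of 1 symbol were summed. Levels were put on the log2(TPM + 1) scale, and genes with a mean of at least 1 TPM were called expressed. Computation used Python 3.11.15, numpy 2.4.6 and pandas 2.3.3, and was checked on a table with known changes. Gene coordinates and the longest annotated 3′ untranslated region per gene came from GENCODE M21 (GRCm38), microRNA and promoter sequences from RefSeq (GRCm38.p6).

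The members and lists were chosen with earlier results of these data known. Named genes are all members, circuit genes, relatives and protein C pathway genes, and of other lists the 2 highest and 2 lowest means and genes at 0. Other genes named, such as Gfi1, Thy1, Mcpt8 and Cd8a, were chosen after their values were seen. Alternatives changed the pseudocount, scaling, filter, fold and mice.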

Additional observations from a re-analysis of the deposited data

How the results depend on the processing

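Leaving out 1 mouse moved the spread of the members most: their median SD ranged from 0.143 (without mouse 1) to 0.570, against 0.473 with all mice, and the number of members with a 2-fold difference ranged from 0 (without mouse 1) to 4, against 5; this last alternative was chosen after seeing the data. Other scaling and filters gave 4 or 5 such members, and 13.8% of expressed genes passed 2-fold under either scaling. At a lower bar of 1.5-fold 7 members passed, but the share of expressed genes at that bar was not computed. Nor was the median SD of all expressed genes with a mouse left out. The median level of the members ranged from 4.33 to 4.92 log2 units when a mouse was left out. With 0.1 added in place of 1, the levels of Procr and Slamf1 moved down to about 1 and 0.15 log2 units, those of the other 8 members by less than their spread. Upper-quartile scaling could not test the members' levels. Its log2 shifts cancel over all mice, so each mean level stays almost the same by construction. The count of members that lead their family was 5 of 9 under every setting run. No paired analysis was possible because the mice form a single group. The depth is unknown, so the counting error of Procr and Slamf1 cannot be stated.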
